A study of Mus musculus with 12 samples.

Results

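A single cytosine in the 5′UTR of Pabpc4, at position 123283491 of the plus strand of chromosome 4 (GRCm38, the build called mm10), was followed in adult mouse neural stem cells (NSCs). RNA bisulfite sequencing converts unmethylated cytosine to uracil and leaves 5-methylcytosine (m5C) as cytosine, so the level of a site is the percentage of its reads that stayed cytosine. The site was chosen by its level in these same libraries, where it was 1 of 694 cytosines of Pabpc4 listed in at least 1 library, of 6384216 cytosines listed in the whole series. Its height against its neighbours, the rest of its mRNA and other sites is therefore given as a description with no test, and only its differences between culture conditions and RNA fractions were tested.

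The NSCs came from the subventricular zone of wild-type male C57BL/6 mice of 6 to 8 weeks and were cultured for 4 days with folic acid at 1.5 µM (LF), 10 µM (MF) or 80 µM (HF). Poly(A) RNA was taken from total RNA and from polysome fractions, which are the gradient fractions of mRNAs carrying several ribosomes. Each of the 6 groups (total LF, total MF, total HF, polysome LF, polysome MF and polysome HF) had 2 libraries, 12 in all. The labels call these biological duplicates and do not tie them to separate animals, so the error between them is the spread between these samples. The comparisons ask whether the methylation of the site depends on folate and whether it differs between translated and total mRNA.

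Pabpc4 encodes a cytoplasmic poly(A)-binding protein, also known as inducible PABP, which coats the poly(A) tail and contacts the cap-binding complex through eIF4G, thereby linking the ends of an mRNA during translation. m5C in mRNA is deposited mainly by the methyltransferases NSUN2 and NSUN6, and both the 5′UTR and the 3′UTR are known locations of such sites. Folate feeds the one-carbon cycle that supplies the methyl donor of these enzymes.

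The site lies in exon 1 of the gene (ENSMUSG00000011257.19, chr4:123262351-123298925, plus strand) and in the 5′UTR of each of its 5 coding transcripts, among them 1 marked for nonsense-mediated decay. It is base 581 of the principal mRNA (ENSMUST00000080178.12, 3019 bases, 15 exons) and lies 124 bases upstream of the start codon, in a 5′UTR of 704 bases. A noncoding transcript of the locus that starts farther upstream carries the same position in an intron. The 5′UTR is 59.8% G or C, holds 216 cytosines and 51 CG dinucleotides, and contains no ATG. The surrounding sequence is shown first, because the site was read against it, together with the stretch that RNA folding places opposite to it. The methylated cytosine and its predicted partner G are in capitals.
Pabpc4 site, chr4:123283481-123283501, plus strand: cagccttctcCggcgtcgctg
Pabpc4 predicted partner, chr4:123283353-123283373, plus strand: caggacagctGgagagtacaa

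The cytosine is followed by GG, and the 21 bases around it hold 8 other cytosines, whose conversion was read in the same way. Motif searches on the RNA strand only, at the methylated cytosine itself, found that the site begins CGG and begins neither CNGGG nor CTCCA. The first of the latter 2 has the G-rich 3′ side known for NSUN2 sites, and CTCCA is the motif known for NSUN6 sites.

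Library quality bore on several comparisons. Per library, 779105 to 2043837 cytosines were listed, with median coverages of 335 to 605 reads in 11 libraries and 920 in polysome HF replicate 2. The libraries labelled total HF stood apart. They held 6369 and 5182 cytosines past the standard filter (20 or more reads, 6 or more of them unconverted, and a level of 10% or more), against 2150 to 2641 in the other total libraries, and 25.6% and 26.5% of these lay within 25 bases of another, against 89.1% to 90.7%. The coverage and methylated counts of the sites the study lists were also found unchanged at 56 to 121 sites in each of the other 10 libraries and at 0 sites in either library labelled total HF. Polysome HF replicate 2 held 38353 cytosines with levels over 90%, against 1102 to 3465 in the other libraries. The level of the site and its differences between the fractions over all folate concentrations are therefore given with and without the HF libraries. The interaction test and the set of sites measured in all 12 libraries used them throughout. All 5 NSC markers (Nes, Sox2, Sox9, Fabp7 and Vim) were listed in every library, with a summed coverage of 7375 to 11085 per 1000000 of the coverage summed over all listed cytosines, against 24.1 to 190 for 5 neuronal markers, 151 to 686 for 4 astrocyte markers, 137 to 482 for 5 oligodendrocyte-lineage markers, 0.0563 to 1.05 for 4 microglial markers and 0 to 0.276 for 3 endothelial markers. Rbfox3, Mog, Cx3cr1, Aif1, Csf1r, Cdh5 and Cldn5 had no listed cytosine. The neuronal markers had 117 to 190 in the total and 24.1 to 63.1 in the polysome libraries, ranges that did not overlap. Those of every other marker set overlapped. Only 2 of the 5 neuronal markers were listed in every library. The polysome libraries also listed fewer cytosines (779105 to 1645522, against 1778693 to 2043837), and the sums cover listed cytosines only. How many other genes separate the fractions was not counted, and the part of listing or of neuronal RNA was not tested.

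At the Pabpc4 site, 41.5% to 66.2% of reads were unconverted in the 12 libraries. In total LF, 27 of 47 reads (57.4%) and 22 of 53 reads (41.5%) were unconverted. In total MF, the counts were 28 of 58 (48.3%) and 29 of 61 (47.5%). In the libraries labelled total HF, they were 88 of 143 (61.5%) and 44 of 86 (51.2%). The total MF libraries nearly coincided, while those of total LF lay on both sides of them. In polysome LF, 51 of 95 reads (53.7%) and 48 of 81 reads (59.3%) were unconverted. In polysome MF, the counts were 35 of 69 (50.7%) and 49 of 74 (66.2%), and in polysome HF 41 of 71 (57.7%) and 43 of 85 (50.6%). The highest library of all, polysome MF replicate 2, and the lowest, total LF replicate 2, each had a replicate nearer to the middle. The plot of levels by library shows these values with their counting errors.

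**Figure D1:**
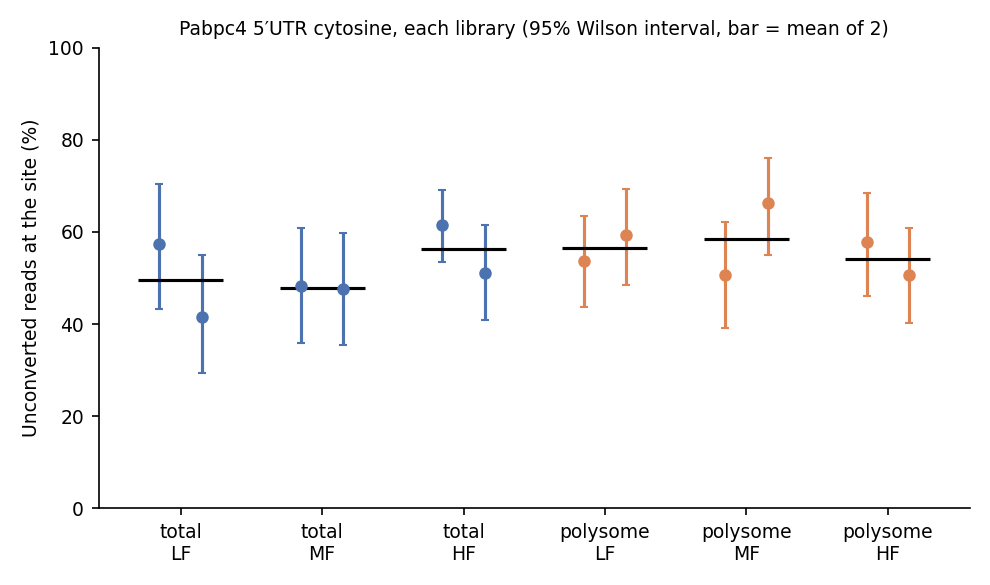
Percentage of unconverted reads at the Pabpc4 5′UTR cytosine (vertical axis) in each of the 12 libraries, grouped by RNA fraction and folate; points are libraries with 95% Wilson intervals, and bars are the means of 2 libraries. The libraries range from 41.5% to 66.2%, and the intervals of all libraries overlap.

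Over all 12 libraries the mean level was 53.8% ± 6.88 (SD, n = 12), and 505 of 923 pooled reads were unconverted, a level of 54.7% (95% Wilson interval 51.5% to 57.9%). Without the HF libraries the mean was 53.1% ± 7.78 (SD, n = 8) and the pooled level 53.7% (289 of 538 reads). Reads were not tagged with molecular identifiers, so every interval given for read counts (Wilson or Newcombe) covers counting error only. The smallest coverage, 47 reads, gave a Wilson interval of 43.3% to 70.5%, and the largest, 143 reads, one of 53.4% to 69.1%. The site passed the standard filter in 12 of 12 libraries. No read at the site carried a base other than C or T.

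The site was the only cytosine of its neighbourhood with a high level. Within 10 bases lie 8 other cytosines, which makes 96 combinations of cytosine and library. Of these, 6 were listed, each with 1 unconverted read. The cytosine 1 base upstream of the site, at position 123283490, had 1 of 143 reads in total HF replicate 1, 1 of 78 in polysome LF replicate 2 and 1 of 72 in polysome MF replicate 2. The cytosine 6 bases downstream had 1 of 56 reads in total MF replicate 2 and 1 of 62 in polysome MF replicate 1, and the one 8 bases downstream had 1 of 45 in total MF replicate 1. Their highest level was 2.22%. The lists hold only cytosines with at least 10 reads and 1 unconverted read, so an unlisted cytosine had no unconverted read or fewer than 10 reads. At the coverage of the site, a count of 0 allows a level of up to 2.1% in total HF replicate 1 and up to 6.38% in total LF replicate 1. Within 25 bases, 14 of 252 combinations of 21 cytosines and 12 libraries were listed, with 20 unconverted reads in all and a highest level of 3.45%.

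In the 5′UTR and coding sequence of Pabpc4, the listed cytosines other than the site were mostly converted. The listed cytosines of the principal mRNA other than the site (94 to 259 of 801 in a library) had an unconverted share of 0.132% to 0.186%, with a median over libraries of 0.169%. The share was 0.113% to 0.233% in the 5′UTR and 0.138% to 0.203% in the coding sequence. The 3′UTR was hardly measured, with 0 or 1 of 62 cytosines listed in a library, at 14 to 22 reads and 4.55% to 7.14% where 1 was. Of 7608 cytosines of introns and noncoding transcripts, 0 to 57 were listed, with shares of 0.435% to 27.3%. The 27.3% was 1 cytosine with 3 of 11 reads in polysome MF replicate 2, and the total libraries had shares of 0.435% to 2.72%. The level of the site was 224 to 430 times the share of the rest of its mRNA in the same library, a share that deeply covered cytosines dominate. Against the listed cytosines within 25 bases, which had a similar coverage, it was 13.7 to 51.6 times as high. Since the lists leave out cytosines with no unconverted read, these shares are upper values for the rest of the mRNA.

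**Figure D2:**
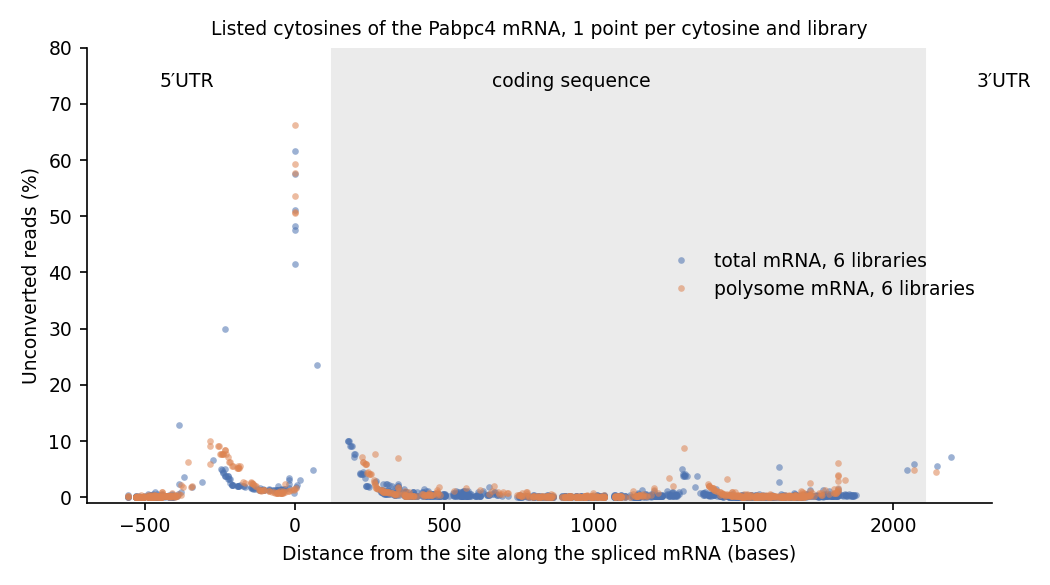
Unconverted reads in percent (vertical axis) at each listed cytosine of the Pabpc4 mRNA in each library, by distance in bases from the site along the spliced mRNA (horizontal axis); each point is 1 cytosine in 1 library. The 12 points of the site lie between 41.5% and 66.2%, above all other points.

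The site was covered less deeply than most of the mRNA. Its 47 to 143 reads were 0.050 to 0.290 of the median coverage of the other listed mRNA cytosines, which was 279 to 1707 reads. Listed cytosines within 25 bases had median coverages of 54.5 to 137.5 reads in the libraries that listed any, so they shared the shallow coverage. Over the whole 5′UTR, the listed cytosines other than the site had median coverages of 77 to 3009 reads. Deep cytosines are listed more readily, since listing needs 1 unconverted read.

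Few other Pabpc4 cytosines had high levels. Only 2 of the 694 cytosines were listed in all 12 libraries, the site and a coding cytosine at position 123291811, whose coverage of 2196 to 6617 reads came with a pooled level of 0.087% and a highest level of 0.199%. In contrast, 206 cytosines were listed in a single library. A level of 10% was reached in some library by 14 other cytosines, 4 of them at 20 or more reads. The highest of the 14 was the 5′UTR cytosine at position 123283260, 231 bases upstream of the site. It had 30% in 1 of its 4 libraries, where it had fewer than 20 reads. Its coverage was 10 to 27 reads and its pooled level 8.70%. At position 123283565, 74 bases downstream, 4 of 17 reads (23.5%) were unconverted in the single library that listed it. One other cytosine passed the standard filter in a library, at position 123283106 in the 5′UTR, 385 bases upstream of the site. It did so in total HF replicate 1, with 12.8%, was listed in 3 libraries, and had a pooled level of 3.19% where listed.

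The 5 other mRNA cytosines with the highest pooled levels, among those with 20 or more reads in at least 6 libraries, were all in the coding sequence. Position 123286708 had 2.34% over 9 libraries, with a highest value of 6.91% in polysome LF replicate 2. Position 123295792 had 1.08% over 7 libraries, with 2.75% and 5.35% in the libraries labelled total HF and no more than 0.223% in the other 5. Positions 123297703, 123295988 and 123297702 had 0.922%, 0.914% and 0.754%, with highest values of 4%, 2.45% and 6.02%. None of these 5 passed the standard filter in any library.

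Predicted structure was described because the study removes cytosines in conversion-resistant RNA structure at a later step than the deposited lists. That step was not rerun here, and the values below share its temperature and pairing distance but are pairing probabilities of the spliced mRNA from a later program version. Folding the principal mRNA with RNAfold at 70 °C and a maximum pairing distance of 150 bases gave the site a probability of being paired of 0.978. On the other 4 coding transcripts it was 0.977 to 0.979, and at 37 °C it was 0.841. The likeliest partner was the G 128 bases upstream that is in capitals in the second sequence above, with a pairing probability of 0.946 (0.753 at 37 °C). Both bases lie in a predicted helix of 9 successive pairs, which spans bases 576 to 584 of the mRNA on the side of the site. The mean pairing probability within 10 bases of the site was 0.817, against 0.480 over the 5′UTR, and 11 of the other 215 cytosines of the 5′UTR were paired with a higher probability than the site. At 37 °C, 65 of the 215 were, and among the 21 other cytosines within 25 bases the number at least as paired as the site was 10, against 3 at 70 °C.

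Most neighbouring cytosines with a predicted pairing near that of the site had no listed unconverted read. Of the other 21 cytosines within 25 bases, 7 had a pairing probability of at least 0.9. They include the cytosines 1 base upstream (0.979), 3 bases upstream (0.938) and 3 bases downstream (0.969), all in the same predicted helix as the site. Only 2 of the 7 were ever listed, with levels of at most 1.39%. In the whole 5′UTR, 30 other cytosines had a pairing probability of at least 0.9, of which 9 were listed in some library, with levels of at most 5.56%, and 0 passed the standard filter. The part of structure in the unconverted reads of the site itself was not tested, as the files hold no sample of unmethylated Pabpc4 RNA.

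**Figure D3:**
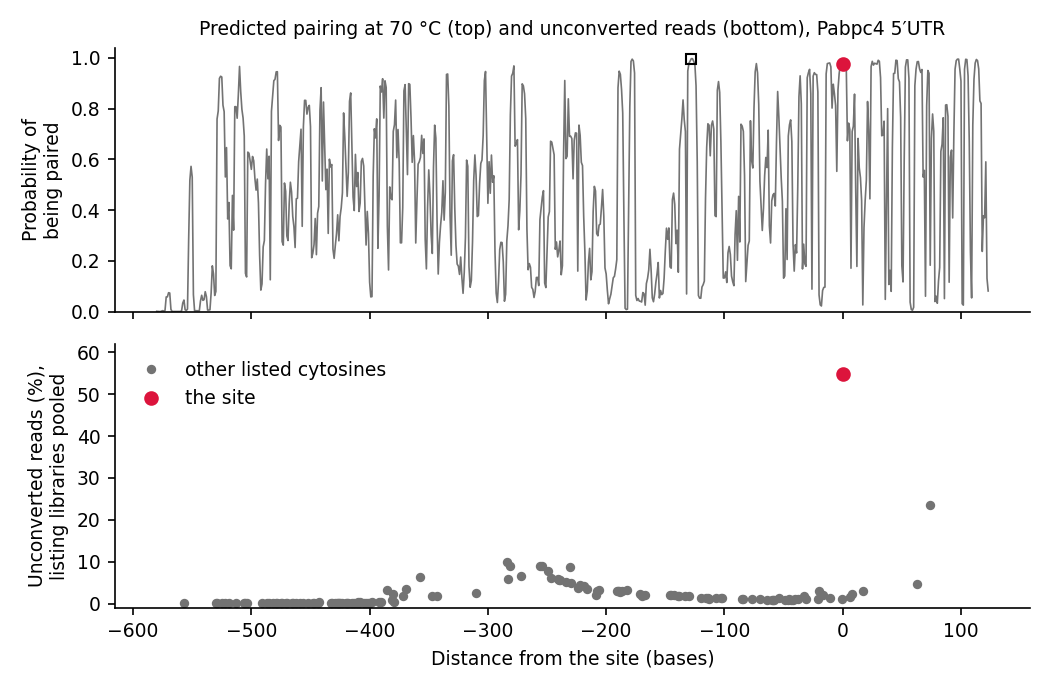
Predicted probability of being paired at 70 °C for the bases of the Pabpc4 5′UTR (top) and percentage of unconverted reads at its listed cytosines (bottom), both by distance in bases from the site. The site is paired with a probability of 0.978 and its predicted partner lies 128 bases upstream. Of 30 other cytosines with probabilities of at least 0.9, 9 were listed, with pooled levels of at most 4.76%.

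Folate was not seen to change the level of the site in total mRNA. With reads pooled over the 2 libraries of a group, the level was 49.0% in total LF and 47.9% in total MF, a difference of 1.10 points (95% Newcombe interval -12.0 to 14.1; two-sided Fisher's exact test, p = 0.893, adjusted p = 1). Adjusted p-values are Benjamini-Hochberg values over all sites tested in the comparison, of which 14 of 1842 (0.76%) passed an adjusted p of 0.05. In the libraries labelled total HF, the level was 57.6%, which was 9.74 points above total MF (interval -1.26 to 20.5; Fisher's exact test, p = 0.0898, adjusted p = 0.0940). In that comparison 1073 of 1138 sites (94.3%) passed, 943 of them higher. Sites entered by passing the filter in both replicates of either group, which favours sites high in a single group. Of the 6461 cytosines past the filter in both replicates of any of the 6 groups, tested here or not, 40.1% passed only in total HF. The share passing is therefore no measure of how steady the Pabpc4 site was. The group means were 49.5% ± 11.3 in total LF, 47.9% ± 0.52 in total MF and 56.4% ± 7.34 in total HF (SD, n = 2 each), and the LF libraries enclosed those of MF. Both HF libraries lay above both MF libraries.

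The same held in polysome mRNA. The level was 56.2% in polysome LF and 58.7% in polysome MF, a difference of -2.49 points (interval -13.2 to 8.36; Fisher's exact test, p = 0.733, adjusted p = 1), while 104 of 1074 sites (9.68%) passed. In polysome HF it was 53.8%, which differed from polysome MF by -4.90 points (interval -15.9 to 6.31; Fisher's exact test, p = 0.416, adjusted p = 0.990), with 64 of 703 sites (9.1%) passing. The 2 polysome MF libraries lay below and above every polysome LF library, and the polysome HF libraries overlapped them. These intervals cover counting error only and leave out the spread between libraries, so they do not bound the change in level. A linear model in limma on log2 odds of methylation includes that spread. In polysome mRNA its intervals were -1.39 to 1.14 for LF against MF and -1.60 to 1.08 for HF against MF. In total mRNA they were -1.08 to 1.26 for LF against MF and -0.46 to 1.44 for HF against MF.

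Single libraries decided the sign or the size of these differences. Without total LF replicate 1, LF differed from MF by -6.39 points in total mRNA. Without polysome MF replicate 2, LF lay 5.53 points and HF 3.12 points above MF in polysome mRNA, and without polysome LF replicate 1, LF lay 0.518 points above MF. For HF against MF in total mRNA the sign did not turn. Without total HF replicate 1 the difference was 3.26 points (Fisher's exact test, adjusted p = 0.695), and without total HF replicate 2 it was 13.6 points (adjusted p = 0.0358), in a comparison where 1697 of 1793 sites passed.

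**Figure D4:**
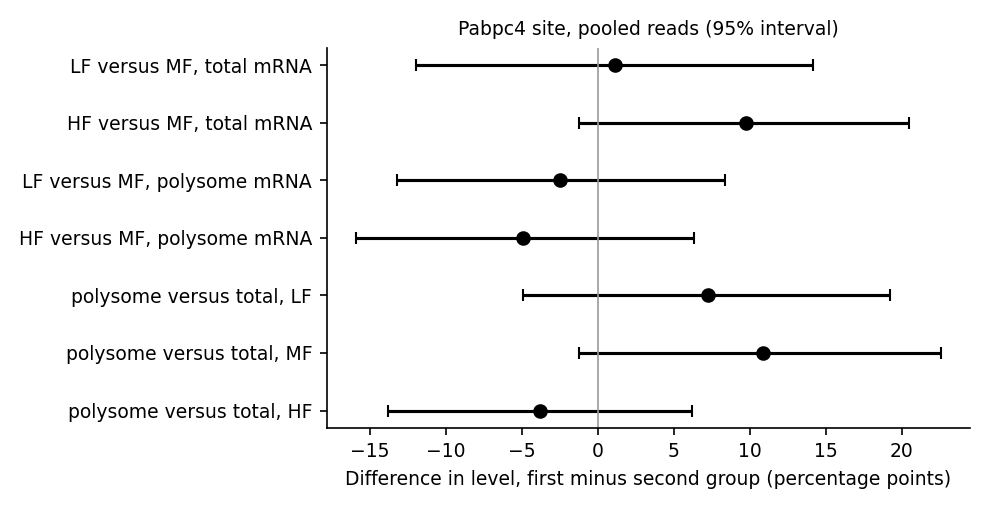
Difference in the level of the Pabpc4 site between the first and the second group of each of the 7 comparisons (horizontal axis, percentage points; reads pooled over 2 libraries a group), with 95% Newcombe intervals. Each interval contains 0, and the largest difference is 10.8 points for polysome MF against total MF.

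The site was also not seen to differ between polysome and total mRNA. The mean level was 56.4% ± 6.00 in the polysome libraries and 51.2% ± 7.24 in the total libraries (SD, n = 6 each), a difference of 5.12 points. Leaving out 1 library moved it between 2.47 points (without total LF replicate 2) and 7.78 points (without total LF replicate 1). The exact two-sided permutation test of fraction labels within folate gave p = 0.296 over 216 arrangements, where the smallest possible p is 0.00926. Polysome levels spanned 50.6% to 66.2% and total levels 41.5% to 61.5%, so that the fractions overlapped over most of their range. Without the HF libraries the difference was 8.78 points (exact permutation p = 0.222, smallest possible p = 0.0556), and over pooled reads it was 3.09 points.

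The linear model in limma, on log2 odds of methylation with a term for folate, gave the site a polysome-minus-total difference of 0.30 ± 0.26 (SE; 95% interval -0.28 to 0.88; adjusted p = 0.333). It was fitted on the 194 sites with at least 20 reads in all 12 libraries and a pooled level of at least 10%, of which 75 (38.7%) passed, all higher in polysome mRNA. Without the HF libraries the sites were chosen again over the remaining 8 libraries, and the difference was 0.51 ± 0.29 (limma, adjusted p = 0.220), with 97 of 324 sites passing. Among the 99 other sites with no further site within 25 bases, 93 had a positive difference and 48 passed. Of these 99, 80 had a larger log2 odds difference than the Pabpc4 site (median 0.78), and 62 a larger difference in points (median 7.57 points). The plot of ordered differences shows the site near the lower end of this set.

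**Figure D5:**
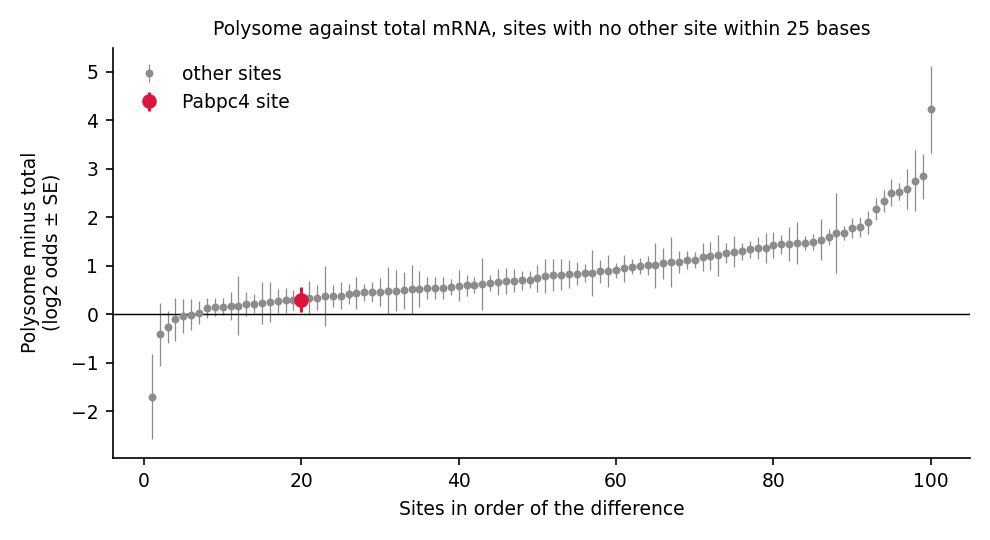
Polysome-minus-total difference in log2 odds of methylation (vertical axis, ± SE) for the 100 sites with no other site within 25 bases, in order of the difference. The Pabpc4 site, at 0.30 ± 0.26, has 80 sites above it.

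Within each folate concentration the direction was not shared. In LF, the polysome level exceeded the total level by 7.25 points (interval -4.90 to 19.2; Fisher's exact test, p = 0.260, adjusted p = 0.325), while 312 of 480 sites (65%) passed. In MF, it did so by 10.8 points (interval -1.26 to 22.5; Fisher's exact test, p = 0.0832, adjusted p = 0.136), with 216 of 403 sites (53.6%) passing. In HF, it lay 3.80 points below the total level (difference -3.80, interval -13.8 to 6.22; Fisher's exact test, p = 0.466, adjusted p = 0.605), with 423 of 648 sites (65.3%) passing. In MF both polysome libraries lay above both total libraries, and in LF and HF the libraries overlapped.

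The test of whether the polysome-minus-total difference varied with folate did not pass. limma gave F = 0.887 for the interaction (adjusted p = 0.574), with 104 of 194 sites (53.6%) passing, or 10 of 100 when sites within 25 bases of another were left out. The difference in HF minus that in MF was -0.75 ± 0.58, and that in LF minus that in MF was -0.21 ± 0.58 (log2 odds, SE). Left-out libraries mattered here too. Without polysome MF replicate 1 the MF difference was 18.3 points (Fisher's exact test, adjusted p = 0.0344), and without polysome MF replicate 2 it was 2.83 points (adjusted p = 0.836). Without total LF replicate 2 the LF difference was -1.20 points, and the HF difference was 2.68 points without total HF replicate 1 and 0.105 points without polysome HF replicate 2.

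The rest of the Pabpc4 mRNA, measured in the same libraries, served as background. Its unconverted share was 0.163%, 0.186%, 0.179%, 0.163%, 0.169% and 0.172% in the total libraries (LF, MF and HF, replicate 1 before replicate 2) and 0.132%, 0.185%, 0.176%, 0.160%, 0.134% and 0.170% in the polysome libraries. Polysome LF replicate 1, polysome HF replicate 1 and polysome MF replicate 2 lay below every total library, and the other 3 polysome values lay within the range of total mRNA. The mean was 0.160% ± 0.0219 in polysome and 0.172% ± 0.00887 in total mRNA (SD, n = 6 each), a difference of -0.0123 points (exact permutation p = 0.241). Without the HF libraries it was -0.00938 points (exact permutation p = 0.5, smallest possible p = 0.0556). With the libraries paired by replicate number, it was lower in polysome mRNA in 6 of 6 pairs (exact sign-flip p = 0.0312, the smallest that 64 arrangements can give). Whether equal numbers pair the samples is not known, since counting error weakens the correlation used to check it. Since the share is at most 0.186%, its difference in points cannot be set against the spread of the site between libraries. The share also covers listed cytosines only, each with at least 1 unconverted read. Of 801 cytosines, 159 to 259 were listed in a total library and 94 to 209 in a polysome library. These p-values cannot separate a difference in listing from one in conversion, and the part of listing was not tested.

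In order of their means, polysome MF (58.5% ± 10.95), polysome LF (56.5% ± 3.94), total HF, polysome HF (54.2% ± 5.06), total LF and total MF followed each other (SD, n = 2 each). Each step between neighbours in this order was smaller than the larger SD of the pair.

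Among the sites measured in all 12 libraries, the Pabpc4 site had the highest level over pooled reads of those in 1 annotated gene with no other site within 25 bases, and the next highest after Ranbp9 when libraries counted equally. There were 96 such sites in 94 genes, with a median pooled level of 15.1% (quartiles 12.2% and 21.3%), and 0 had a higher pooled level than the Pabpc4 site. By the mean of the 12 libraries 1 site was higher, that of Ranbp9, with 56.2% against 53.8%, and by the median it was 56.0% against 52.4%. The order of these 2 sites was the same without the HF libraries, with means of 55.1% and 53.1%. The SD over libraries was 6.88 points for the Pabpc4 site, where counting error alone would give 5.91 points. It was 6.56 points for the median site. Counting error depends on level and depth, in which the sites differ, so these SDs do not compare the spread between libraries. By region, counting also sites outside single genes, 45 of 100 lay in a coding sequence, 40 in a 3′UTR, 7 in a 5′UTR and 8 elsewhere. The other 5′UTR sites were those of Ranbp9 (49.5%), Wac (40.8%), Emc3 (24.8%), Ube2r2 (21.1%), Grm4 (19.1%) and Ccny (13.1%).

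The sites whose levels were most like those of Pabpc4 over the 12 libraries, by the root mean square difference, were in Sdc3 (9.70 points), Myo6 (11.1), Ranbp9 (11.5), Wac (14.8) and Rnf157 (15.01). Sdc3 encodes the heparan sulfate proteoglycan syndecan-3, and its 3′UTR site had a pooled level of 43.8%. Myo6 encodes the minus-end-directed motor myosin VI, with a 3′UTR site at 44.6%. Ranbp9 encodes a RAN-binding scaffold of an E3 ubiquitin ligase complex, and its site is in the 5′UTR. Wac encodes a WW-domain adaptor protein with a 5′UTR site, and Rnf157 a RING-finger ubiquitin ligase with a site in the coding sequence at 40.7%. The sequences of 4 of them are shown to compare the bases that follow the methylated cytosine, which is in capitals.
Sdc3, chr4:130824045-130824065, plus strand: ggacacgtgtCtccaaagtgc
Myo6, chr9:80310356-80310376, plus strand: accagggagtCagggtctcac
Ranbp9, chr13:43481060-43481080, minus strand: ccgcgctccgCcgggccgcgc
Rnf157, chr11:116358670-116358690, minus strand: gcccctcaagCagaagcaagt

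The Pabpc4 sequence shares neither the CTCCA of Sdc3 nor the CNGGG of Myo6 and Ranbp9. Among the 99 isolated nuclear sites, CNGGG followed in 24.2%, CTCCA in 5.05% and the CGG of the Pabpc4 site in 13.1%. The Pabpc4 site has G at bases 1, 2 and 4 after the cytosine, which 22.2%, 65.7% and 52.5% of the sites have, and C at base 3, which 10.1% have against 62.6% with G. A match here describes the letters only and does not identify an enzyme.

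Like the Pabpc4 site, the 5 alike sites had a higher mean level in polysome mRNA, as did most sites. Of the 5, 2 passed the test, where 48 of the 99 other sites with no further site within 25 bases did. The 5 were chosen by their levels in these same libraries, so their values are a description. They also had the highest pooled levels after Pabpc4 among such sites in 1 annotated gene. For Ranbp9 the polysome level was higher by 21.3 points (log2 odds 1.27 ± 0.20, limma adjusted p = 0.001003), and for Sdc3 by 12.2 points (0.72 ± 0.17, adjusted p = 0.00836). For Rnf157, Wac and Myo6 the adjusted p-values were 0.0598, 0.0733 and 0.268, with differences of 11.4, 9.08 and 8.18 points. Whether these differences exceed that of Pabpc4 was not tested.

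Genes around poly(A)-binding proteins were examined as a list of 30, covering the PABP family, PABP-interacting proteins, cap-binding and termination factors, and deadenylation factors. Of these, 27 had listed cytosines, and 26 had them in every library. Pabpc2, Pabpc5 and Pabpc6 had none, and Pabpc1l had 0 to 2. Pabpc1, the main cytoplasmic poly(A)-binding protein, had 183 to 625 listed cytosines with a highest level of 20% at 20 or more reads and none that passed the filter in both replicates of a group. The list held 16 cytosines in 8 genes that did so in some group, which is 29.6% of its listed genes, against 12.1% of all 17202 genes named in the files. Larp4b, Tob2, Atxn2, Atxn2l, Tnrc6c and Usp10 had such cytosines only in the libraries labelled total HF. Cytosines were assigned to list genes by annotated exons and to all genes by the deposited gene names, so the shares differ in measure. Coverage also differs between genes, and the difference between the shares was not tested. Of the 16 cytosines, 0 passed in all 6 groups, where 39 of 6461 such cytosines (0.604%) in the series did. The Pabpc4 site, chosen for its level, passed in all 6.

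Of the 16 cytosines, 8 passed only in the libraries labelled total HF, as did 40.1% of all 6461. Among these was a coding cytosine of Eif4b, an RNA-binding cofactor of the eIF4A helicase, with 13.7% and 12.1% there and at most 0.321% in the 8 other libraries that listed it. Tob2, a recruiter of the deadenylase complex, had 37.2% and 42.0% at a 3′UTR cytosine that no other library listed. A 5′UTR cytosine of Eif4b passed only in polysome LF, with 57.1% and 28.1%, against 1.06% to 5.88% in the 4 total libraries that listed it and 44.4% in 1 polysome MF and 1 polysome HF library. The other 7 were a run in the coding sequence of Tnrc6a, a GW182 protein of microRNA silencing, which passed in total LF, total MF or both.

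Few cytosines of the list could be tested between groups. In LF against MF in total mRNA, 5 cytosines of Tnrc6a were tested and 0 passed, where 0.76% of all sites did. The coding cytosine of Eif4b was called higher in the libraries labelled total HF than in total MF by Fisher's exact test (13.0% against 0.148%), as were 82.9% of all sites tested. It was called lower in polysome HF than in total HF (0.0752% against 13.0%), as were 31.9% of all sites tested. Both calls rest on the libraries that stood apart. The 5′UTR cytosine of Eif4b was called higher in polysome LF than in total LF (39.6% against 1.35%), as were 60.4% of all sites tested. Each of these Eif4b cytosines passed the filter only in the group where it was high, and entered its tests through that group. The direction was thus set by the choice of sites, and no p-value is given for it. No cytosine of the list was tested in the other 3 comparisons.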

How the data were processed

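RNA bisulfite sequencing lists of 12 libraries were analysed. Per the labels and methods, the authors used fastp for trimming, meRanGh for alignment to mm10 and meRanCall for listing cytosines (at least 10 reads and 1 methylated read) before annotation with meRanAnnotate. The deposited columns hold whole-number counts of reads and of methylated reads and the level as a fraction of the counts. The deposited lists precede the authors' filters on conversion, FDR and structure. The read counts were used here, and the level was recomputed as a percentage. Read depth per cytosine sets the precision (binomial intervals).

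Genes, regions and transcripts came from GENCODE M21 and sequences from the GRCm38 genome. Python 3.11.15, SciPy 1.17.1, ViennaRNA 2.7.2 and, for limma 3.58.1, R 4.3.3 were used. For folate and fraction comparisons, sites with at least 20 reads in all 4 libraries that passed the standard filter (20 reads, 10%, 6 methylated reads) in both replicates of either group were tested with Fisher's exact test on pooled reads, which covers counting error only. limma used log2 of (methylated + 0.5)/(converted + 0.5) over 12 libraries. Single values were tested by exact permutation within folate. Benjamini-Hochberg adjustment ran over all sites of a comparison. The scripts were tested on simulated data.

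Named cytosines were the site, listed cytosines within 10 bases, the 5 other mRNA cytosines with the highest pooled levels, the 5 genes with the most alike sites, and listed poly(A)-binding genes with a cytosine past the filter. The Pabpc4 site, gene lists and tests were chosen with earlier results of these data known. Cytosines with a variant call were left out. Alternatives were other coverage and read minimums, beta-binomial and limma tests, pseudocounts, a replicate block, leaving out clustered sites, chromosome MT, HF libraries or each library, other transcripts, and 37 °C folding.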

Additional observations from a re-analysis of the deposited data

How the results depend on the processing

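Leaving out 1 library moved the log2 odds ratio of the Pabpc4 site between -0.37 and 0.54 for LF against MF in total mRNA, 0.19 and 0.79 for HF against MF in total mRNA, -0.60 and 0.32 for LF and -0.74 and 0.18 for HF against MF in polysome mRNA, and -0.06 and 0.85 (LF), 0.16 and 1.08 (MF) and -0.45 and 0.15 (HF) for polysome against total mRNA. The sign turned without total LF replicate 1 (-0.37, LF against MF, total), polysome LF replicate 1 (0.028) or polysome MF replicate 2 (0.32) for LF against MF in polysome mRNA, polysome MF replicate 2 (0.18, HF against MF, polysome), total LF replicate 2 (-0.063, polysome against total, LF), and polysome HF replicate 2 (0.0018) or total HF replicate 1 (0.15) for polysome against total in HF; the cause was not tested. Calls appeared without total HF replicate 2 (0.79, adjusted p = 0.0358) and polysome MF replicate 1 (1.08, adjusted p = 0.0344). Over 12 libraries, leaving out 1 gave log2 odds of 0.14 to 0.43, interaction F of 0.25 to 2.18, permutation differences of 2.47 to 7.78 points at the site and of -0.0210 to -0.00363 points in the rest of the mRNA. Of 90 other alternatives, 81 had a test, not counting the 2 permutation tests below. Of the 81, 80 kept the direction and the side of the threshold. The exception was the rest of the mRNA with a replicate block (-0.0123 points, exact sign-flip p = 0.0312), a share of listed cytosines only. Settings that changed only the coverage minimum, the read minimum or the sites left out kept the reads at the site in Fisher's exact test. Its unadjusted p there stayed at 0.0832 or more, and an adjusted p cannot lie below it. Those settings could therefore neither pass nor turn the sign. Of 7 without a test, pooled reads moved the polysome-minus-total level of the site from 5.12 to 3.09 points and that of the rest of the mRNA to -0.0125 points, both by less than the SD between libraries, the 4 other transcripts moved the pairing probability by less than 0.01, and 37 °C moved it to 0.841. The permutation tests without the HF libraries, 2 in all, kept their direction and could not pass. Same-numbered samples correlated at -0.23 to 0.15 in their deviations. Counting error weakens this correlation, so pairing by number was neither shown nor excluded. The replicate block gave the site log2 odds of 0.30 (limma, adjusted p = 0.377) with 42 of 194 sites passing in place of 75. A crossed pairing for HF against MF in polysome mRNA, chosen after seeing the data, called 0 of 703 sites. Counts of sites passing depended on the test. limma on the pairwise comparisons called 0 sites for LF against MF in total and polysome mRNA and for HF against MF in polysome mRNA (186, 176 and 24 at an unadjusted p under 0.05), where Fisher's exact test called 14, 104 and 64. With the replicate block, limma called 15, 0 and 0. Without the block it called 108 in place of 216 for polysome against total in MF (64 with the replicate block). The beta-binomial test called 28 in place of 64 for HF against MF in polysome mRNA. A minimum coverage of 50 gave no value for comparisons with total LF in Fisher's exact test or for limma, since total LF replicate 1 has 47 reads at the site. Depth, 47 to 143 reads per library, sets the wide Wilson intervals of single libraries.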
